A study of Mus musculus with 9 samples.

Results

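The genes described here are the mouse chemokines and interleukins together with the colony-stimulating factors and Lif, 73 protein-coding genes of 52780 in the deposited table. They were chosen by symbol from the GENCODE M21 annotation, as every Ccl, Cxcl and numbered Il gene, Cx3cl1, Csf1 to Csf3, and Lif. The set held 23 CC chemokines, 12 CXC chemokines, 1 CX3C chemokine, 33 interleukins, 3 colony-stimulating factors and Lif. The rule uses symbols alone. Their mRNA was measured in C2C12, an immortal mouse myoblast line that is 1 line and not muscle tissue, at day 4 after the change to differentiation medium. There were 3 groups of 3 samples, the knockdowns si mH2A1.1 and si mH2A1.2 beside the controls (si Ctrl), with siRNA at 10 nM. The labels call the si Ctrl samples wild type. The siRNAs target macroH2A1.1 and macroH2A1.2, splice isoforms of the histone variant macroH2A1, and the comparisons ask how the loss of each isoform moved the mRNA of these secreted factors. The study calls the replicates biological and independent, while the labels tie none of them to a culture, and p-values measure the spread between these samples.

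Chemokines are small secreted proteins that bind G protein-coupled receptors and guide the movement of cells. Interleukins and the colony-stimulating factors act on receptors of several families and carry signals between leukocytes, stromal cells and, in regenerating muscle, myoblasts and myotubes. Lif belongs to the interleukin-6 family and acts on muscle precursors through Lifr and the shared receptor subunit gp130, which Il6st encodes.

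H2afy, the gene of both macroH2A1 isoforms, was measured at 56.3, 62.4 and 61.0 counts per 1000000 (CPM) in si Ctrl replicates 1 to 3. It was at 38.8, 30.0 and 30.9 CPM with si mH2A1.1 and at 46.8, 47.2 and 43.2 CPM with si mH2A1.2. Both knockdown groups lay below all controls. The log2 fold change against si Ctrl was -0.85 with si mH2A1.1 (SE 0.11, adjusted p = 0.00331). It was -0.39 with si mH2A1.2 (SE 0.11, adjusted p = 0.108), which did not pass the test. Since 1 row holds both isoforms, the values do not show which isoform was lost. At the protein level, the study reports from immunoblots that the interference was specific to each isoform. Totals were 36924252 to 42223108 counts per sample, so that 3 counts, above which a gene was taken as detected, equalled 0.0691 to 0.0826 CPM. This floor covers counting error only, because the reads carry no molecular identifiers and do not each stand for a separate molecule. The 5 myotube markers Myog, Myh3, Ckm, Acta1 and Des summed to 10053 to 14886 CPM. Between the knockdowns Ckm, the muscle creatine kinase, and Des, the intermediate filament desmin, were higher in si mH2A1.1 (log2 fold changes 1.14 and 1.07, adjusted p = 0.00241 and 0.000844). Myog, the transcription factor myogenin, went the other way there (log2 fold change -0.46, adjusted p = 0.0435). So did Myh3 (-0.22, adjusted p = 0.409) and Acta1 (-0.15, adjusted p = 0.676), which did not pass the test. Against si Ctrl, Myog had a log2 fold change of -0.66 in si mH2A1.1 (adjusted p = 0.0204). The part of these marker differences in the results that follow was not tested. The 3 endothelial and the 3 epithelial markers each summed to at most 1.42 CPM. Of 8 leukocyte markers, Cd3e, Lyz2, Ptprc and Csf1r were at or under 0.417 CPM in every sample, and Adgre1 had no count in 8 of 9 samples. The sum of the 8 was 4.02 to 5.04 CPM in si Ctrl, 7.16 to 12.9 CPM with si mH2A1.1 and 4.23 to 4.43 CPM with si mH2A1.2. Most of that sum was Cd68, a lysosomal protein of macrophages and other cells, at 10.6, 5.73 and 11.1 CPM with si mH2A1.1 against 2.58 to 3.62 CPM in si Ctrl (log2 fold change 1.62, SE 0.25, adjusted p = 0.00565). Itgam, the only other of the 8 that was tested, was at 0.963 to 1.24 CPM with si mH2A1.1 against 0.906 to 1.29 CPM in si Ctrl (log2 fold change 0.09, SE 0.23, adjusted p = 0.834).

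Of the 73 genes, 46 were detected with more than 3 counts in at least 1 sample, and 27 of these were above 3 counts in all 9 samples. The other 27 genes were not detected. No read at all was counted for 12 of them, Ccl1, Ccl3, Ccl12, Ccl20, Ccl21a, Ccl21b, Ccl26, Ccl27b, Il3, Il9, Il17a and Il22, which allows levels of up to 0.0826 CPM. All 12 CXC chemokines had at least 1 count. The filter on low counts left 28 genes for the test, 7 CC and 7 CXC chemokines, Cx3cl1, 11 interleukins, Csf1 and Lif. The 18 genes that were detected but not tested reached 0.0988 to 0.510 CPM in their highest sample, with Il17b the highest at 19 counts. The filter can keep a gene for its level in 1 group only, so counts over the 28 tested genes do not describe all 73.

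Levels of different genes were compared as CPM per kilobase of merged exons. In si Ctrl, Csf1 was the highest at 21.9 ± 4.11 CPM per kb (SD, n = 3), above 88.0% of the 19545 genes tested. Csf1 encodes the colony-stimulating factor that macrophages need to survive. The alarmin Il33 followed at 10.3 ± 0.528 and Ccl7, which draws monocytes, at 10.2 ± 2.80 CPM per kb, and their ranges overlapped each other but not that of Csf1. Il12a (5.99 ± 0.0864), Il34 (5.56 ± 0.875) and Ccl2 (4.99 ± 1.35 CPM per kb) came next with overlapping ranges. Il12a encodes the p35 chain shared by interleukin-12 and interleukin-35, Il34 the other ligand of the Csf1 receptor, and Ccl2 the main attractant of monocytes. Below these, neighbours in the order overlapped in range except Ccl5 at 0.961 and Il11 at 0.343 CPM per kb. The lowest tested gene, Il7, was at 0.0452 CPM per kb. Merged exons hold the exons of all annotated transcripts, so genes with long rare transcripts, such as Ccl25 with 7445 bases, have low values per kilobase.

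**Figure D1:**
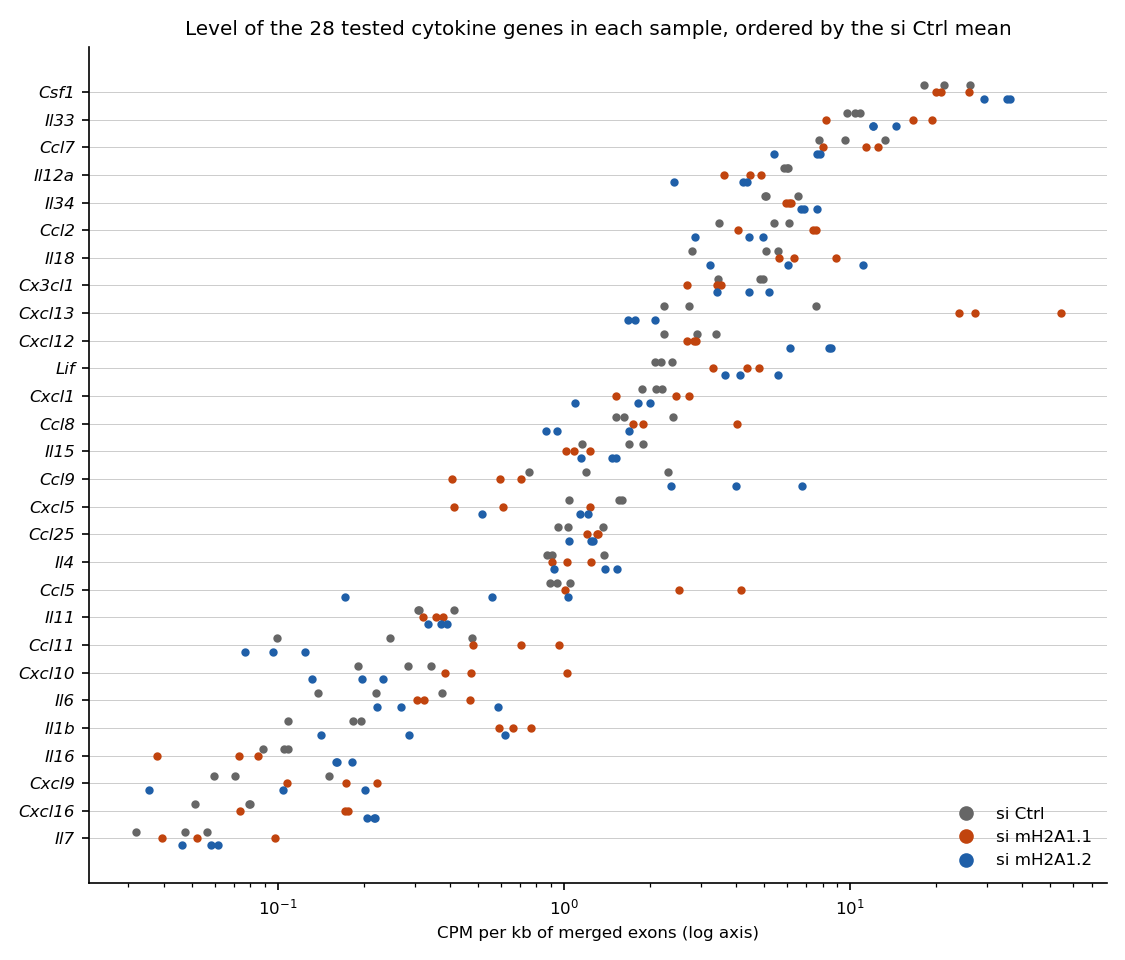
CPM per kb of merged exons on a log axis for each of the 28 tested genes, 1 point per sample, with genes ordered by the si Ctrl mean. Csf1 is at the top at 21.9 CPM per kb in si Ctrl, and the si mH2A1.1 points of Cxcl13 and the si mH2A1.2 points of Cxcl12 stand apart from the controls.

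The summed level of the 73 genes was 247 to 299 CPM in si Ctrl. It was 310 to 349 CPM in the mH2A1.1 knockdown and 384 to 401 CPM in the mH2A1.2 knockdown. These ranges did not overlap. In bulk RNA, more cells that express a gene and more RNA per cell cannot be told apart, here and in every result that follows. On average Csf1 made up 42.3% of the sum in si Ctrl, and its share was 35.5% in the mH2A1.1 and 45.1% in the mH2A1.2 knockdown. Cxcl13 went from 1.85% in si Ctrl to 12.4% with si mH2A1.1, and Cxcl12 from 8.70% in si Ctrl to 16.1% with si mH2A1.2.

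Genes were counted as changed where the adjusted p, over all genes tested, was below 0.01 and the log2 fold change was 0.8 or more in size. With si mH2A1.1, 1 of 28 tested genes rose against si Ctrl (Cxcl13) and none fell, while 1.80% of all genes tested were changed. At an adjusted p below 0.05 alone, 3 of 28 rose (Cxcl13, Il1b and Lif) and none fell, against 11.1% of all genes. Unadjusted p below 0.05 was reached by 10 of 28, 7 higher and 3 lower, against 29.6% of all genes. DESeq2 called 3 higher (Cxcl13, Il1b and Lif) and 0 lower, against 5.05%. With the replicate number as a block, edgeR called 4 of 28, 3 higher and 1 lower, against 4.07%. With si mH2A1.2, 1 of 28 rose against si Ctrl (Cxcl12) and none fell, against 0.179% of all genes. At an adjusted p below 0.05 these were Cxcl12 and Lif, both higher, against 2.35% of all genes. Here 12 of 28 had an unadjusted p below 0.05, 8 higher and 4 lower, against 15.9% of all genes. DESeq2 called 3 higher (Ccl9, Cxcl12 and Lif) and 0 lower, against 1.99%. The fit with the block called the same 3, against 0.594%. Between the knockdowns, 4 of 28 differed, against 6.38% of all genes, with Cxcl13 and Ccl11 higher in si mH2A1.1 and Cxcl12 and Ccl9 higher in si mH2A1.2. At an adjusted p below 0.05 these 4 were joined by Ccl5 and Cxcl10, higher in si mH2A1.1, and by Csf1 and Il16, higher in si mH2A1.2, which made 8 of 28 against 22.5% of all genes. DESeq2 called 7 of the 28 here, 4 higher and 3 lower in si mH2A1.1, against 9.64%. Unadjusted p was below 0.05 for 11 of 28, 6 higher and 5 lower, against 36.2%, and the fit with a replicate block called 5 of 28, 2 higher and 3 lower, against 8.91%. Both knockdowns were compared with the same control samples, so the 3 comparisons are not independent.

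Groups did not overlap for 9 of 28 genes between si mH2A1.1 and si Ctrl (6 higher, 3 lower), against 34.2% of all genes. They did not overlap for 10 of 28 between si mH2A1.2 and si Ctrl (8 higher, 2 lower), against 22.5%, and for 11 of 28 between the knockdowns (5 higher in si mH2A1.1, 6 lower), against 39.7%. Against si Ctrl the 28 genes had a median log2 fold change of 0.27 in the mH2A1.1 knockdown and of 0.18 in the mH2A1.2 knockdown. It was 0.08 between the knockdowns. Over all genes tested the medians were -0.01, 0.00 and -0.01.

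**Figure D2:**
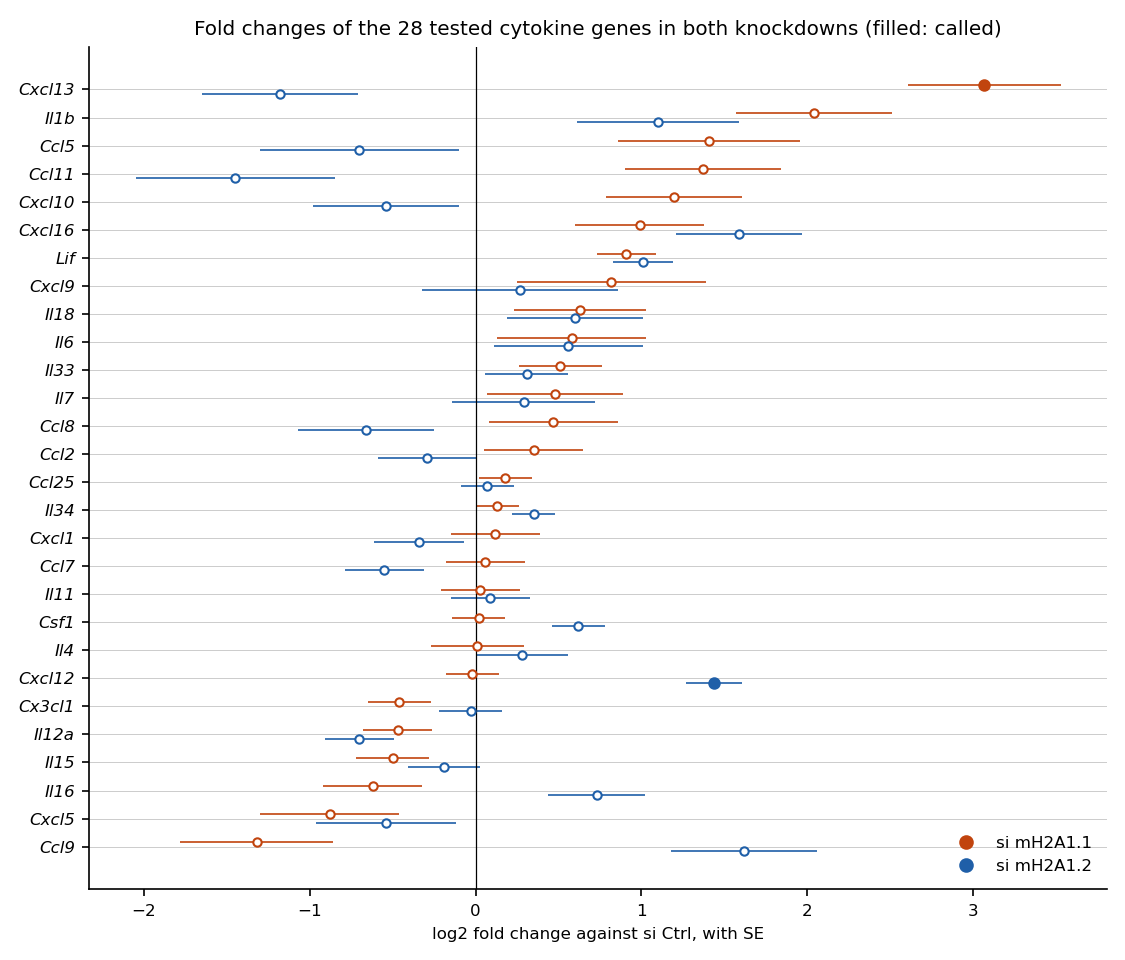
Log2 fold change against si Ctrl (points, bars are SE) of the 28 tested genes in both knockdowns, ordered by the si mH2A1.1 value, with filled points for changed genes. Only Cxcl13 with si mH2A1.1 (3.07) and Cxcl12 with si mH2A1.2 (1.44) are filled, and Ccl9, Ccl11, Ccl5 and Cxcl13 have points on both sides of 0.

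Among the CXC chemokines, Cxcl13 had the largest fold change of the 28 genes tested. Cxcl13 attracts B cells through the receptor Cxcr5 and lies on the plus strand at chr5:95956951-95961068 of GRCm38. It was at 8.73, 2.56 and 3.15 CPM in si Ctrl replicates 1 to 3, at 62.6, 31.3 and 27.6 CPM with si mH2A1.1, and at 2.39, 1.93 and 2.04 CPM with si mH2A1.2. Every si mH2A1.1 sample was above every other sample, and si mH2A1.2 lay below all controls by a small margin. The rise with si mH2A1.1 against si Ctrl was 8.42-fold (log2 fold change 3.07, SE 0.46, adjusted p = 0.00487). The same gene was 19.1-fold higher with si mH2A1.1 than with si mH2A1.2 (4.25, SE 0.49, adjusted p = 0.000524). With si mH2A1.2 the difference from si Ctrl did not pass the test (log2 fold change -1.18, SE 0.47, adjusted p = 0.251) and was -0.43 without si Ctrl replicate 1. Without si Ctrl replicate 1, the highest control, the rise with si mH2A1.1 was 14.2-fold (adjusted p = 0.00206), and leaving out si Ctrl replicate 2 or 3, si mH2A1.1 replicate 1 or 3, or si mH2A1.2 replicate 2 gave adjusted p of 0.0103 to 0.0245. Cd68, most of the leukocyte marker sum, was also higher in si mH2A1.1, while Itgam, the other leukocyte marker tested, had a log2 fold change of 0.09 (adjusted p = 0.834). The part of leukocytes in the rise of Cxcl13 was not tested.

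Cxcl12, also called stromal cell-derived factor 1, acts through Cxcr4 and the scavenging receptor Ackr3 and guides migrating myoblasts as well as blood cells. It lies on the plus strand at chr6:117168535-117181367. Its level was 23.9, 18.3 and 27.7 CPM in si Ctrl, 23.7, 23.2 and 22.0 CPM with si mH2A1.1, and 70.3, 50.5 and 68.7 CPM with si mH2A1.2. All si mH2A1.2 samples were above all 6 others, and si mH2A1.1 lay inside the range of the controls. Cxcl12 rose 2.71-fold with si mH2A1.2 (log2 fold change 1.44, SE 0.17, adjusted p = 0.00631). It was 2.75-fold lower with si mH2A1.1 than with si mH2A1.2 (log2 fold change -1.46, SE 0.17, adjusted p = 0.000467), a difference that stayed called without any 1 of the 9 samples. The rise against si Ctrl was called in only 1 of the 9 fits that leave out a sample, that without si mH2A1.1 replicate 1, and in the other 8 the adjusted p was 0.0110 to 0.0267 with 2.45-fold to 2.98-fold higher levels. From the 6 samples of both groups alone the adjusted p was 0.0192.

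Cxcl10, an interferon-induced attractant of T cells, lies on the minus strand at chr5:92346638-92348889. It was at 0.428, 0.640 and 0.773 CPM in si Ctrl, at 1.06, 0.864 and 2.30 CPM with si mH2A1.1, and at 0.523, 0.444 and 0.295 CPM with si mH2A1.2. The si mH2A1.1 samples were the highest 3 of the 9, with replicate 3 far above the other two. The si mH2A1.1 level was 2.29 times that of si Ctrl, which did not pass the test (adjusted p = 0.0814), and the log2 fold change was 1.74 against si mH2A1.2 (SE 0.42, adjusted p = 0.0165). Of its exon bases, 5.91% also lie in exons of Art3 on the opposite strand, and the strand setting of the libraries is not given in the sources used here. The nearby Cxcl9 was at 0.107 to 0.667 CPM, with overlapping groups.

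The neutrophil attractants Cxcl1 and Cxcl5 did not pass the test in any comparison. Cxcl1 ranged from 2.04 to 5.14 CPM with overlapping groups. Cxcl5 was at 1.93, 2.96 and 2.89 CPM in si Ctrl and at 0.766, 1.14 and 2.30 CPM with si mH2A1.1 (log2 fold change -0.88, SE 0.42, adjusted p = 0.191). Cxcl16, a chemokine made as a membrane-bound form, was at 0.155 to 0.241 CPM in si Ctrl and at 0.618 to 0.661 CPM with si mH2A1.2, ranges that did not overlap (log2 fold change 1.59, SE 0.38, adjusted p = 0.0638). Its exons share 18.3% of their bases with Zmynd15 on the opposite strand. Cx3cl1, or fractalkine, the chemokine with a transmembrane stalk, was at 13.6, 19.0 and 19.5 CPM in si Ctrl, at 13.4, 10.6 and 13.9 CPM with si mH2A1.1 and at 13.4, 17.4 and 20.4 CPM with si mH2A1.2. Its groups overlapped, and the lowest adjusted p of its comparisons was 0.130.

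**Figure D3:**
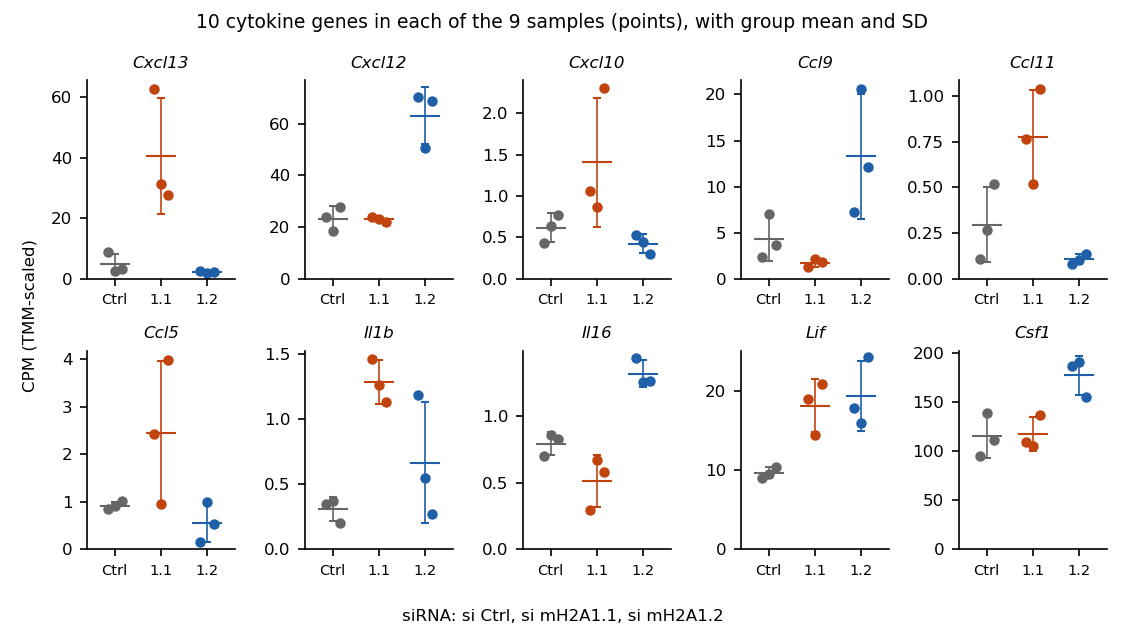
CPM in each sample (points; bars are group mean and SD, n = 3) of the 10 genes with an adjusted p below 0.05 in any comparison, each on its own axis from 0. Cxcl13, Ccl11 and Cxcl10 are highest in si mH2A1.1, Cxcl12, Ccl9, Il16 and Csf1 are highest in si mH2A1.2, and Lif is above the controls in both.

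The CC chemokine Ccl9 differed between the knockdowns in the direction opposite to Cxcl13. Ccl9 attracts myeloid cells and osteoclast precursors and lies on the minus strand at chr11:83572919-83578636. It was at 2.30, 7.03 and 3.64 CPM in si Ctrl, at 1.23, 2.15 and 1.82 CPM with si mH2A1.1, and at 7.21, 20.6 and 12.1 CPM with si mH2A1.2. The groups did not overlap, and replicate 2 was the highest sample of each group. Ccl9 was 7.65-fold lower with si mH2A1.1 than with si mH2A1.2 (log2 fold change -2.94, SE 0.47, adjusted p = 0.00249). Read against si Ctrl, Ccl9 had a log2 fold change of -1.32 with si mH2A1.1 (SE 0.46, adjusted p = 0.0897). In the mH2A1.2 knockdown it was 1.62 (SE 0.44, adjusted p = 0.0932). DESeq2 called the rise with si mH2A1.2 (adjusted p = 0.00458) but not the fall with si mH2A1.1 (0.0199). With the replicate number as a block, the numbers pairing the si mH2A1.2 and si Ctrl samples, the rise with si mH2A1.2 was called at an adjusted p of 0.00541, and with the block Ccl9, Cxcl12 and Lif made 3 of 28 genes that rose, in place of 1, against 0.594% of all genes called. The same fit also called the fall with si mH2A1.1 (log2 fold change -1.22, adjusted p = 0.00437). Same-numbered si mH2A1.1 and si Ctrl samples correlated only at 0.084 to 0.098, and whether they are pairs was not settled. With the block 4 of 28 genes were called in that comparison, Cxcl13, Il1b and Lif higher and Ccl9 lower, against 4.07% of all genes. The difference between the knockdowns was not called without si mH2A1.1 replicate 1 (adjusted p = 0.0149), without si mH2A1.1 replicate 3 (0.0138) or without si mH2A1.2 replicate 2 (0.0104).

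Ccl11, or eotaxin, attracts eosinophils and lies at chr11:82057823-82062955 on the plus strand. Its counts were low, at 4, 10 and 20 reads in si Ctrl, 31, 21 and 45 with si mH2A1.1, and 3, 4 and 5 with si mH2A1.2, which makes 0.107, 0.266 and 0.516 CPM, 0.766, 0.519 and 1.04 CPM, and 0.0826, 0.104 and 0.134 CPM. The si mH2A1.1 samples were above all others, while si mH2A1.2 overlapped the controls. Ccl11 was 7.05-fold higher with si mH2A1.1 than with si mH2A1.2 (log2 fold change 2.82, SE 0.55, adjusted p = 0.00633), a fold that rests on 3 to 5 reads in each si mH2A1.2 sample. Leaving out si Ctrl replicate 2, si mH2A1.1 replicate 1 or 3, or any si mH2A1.2 sample gave adjusted p of 0.0109 to 0.0314. The difference between si mH2A1.1 and si Ctrl did not pass (1.37, SE 0.47, adjusted p = 0.0855) and was 2.02 without si Ctrl replicate 3.

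Ccl5, which attracts T cells and monocytes, was at 0.857, 0.906 and 1.01 CPM in si Ctrl. It was at 2.42, 0.963 and 3.99 CPM with si mH2A1.1 and at 0.165, 0.992 and 0.537 CPM with si mH2A1.2. Replicate 2 of si mH2A1.1 lay inside the control range, and the other two were above all other samples. The log2 fold change between the knockdowns was 2.11 (SE 0.58, adjusted p = 0.0262), and against si Ctrl it was 1.41 with si mH2A1.1 (SE 0.55, adjusted p = 0.118). Without si mH2A1.2 replicate 2 the difference between the knockdowns was 2.79.

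Many of these genes lie in clusters, 45 of 73 with another of them less than 1 Mb away, in 13 clusters. In the cluster of chromosome 11 that holds Ccl2, Ccl7, Ccl11, Ccl12, Ccl8 and Ccl1, 4 genes were tested. Their log2 fold changes against si Ctrl in the mH2A1.1 and mH2A1.2 knockdowns were 0.35 and -0.29 for Ccl2, 0.06 and -0.55 for Ccl7, 1.37 and -1.45 for Ccl11, and 0.47 and -0.66 for Ccl8, of which none passed the test. Between the knockdowns only Ccl11 of these passed, and Ccl7 and Ccl8 had groups that did not overlap (log2 fold changes 0.61 and 1.12, adjusted p = 0.0957 and 0.0694). Ccl5 and Ccl9 lie on the same strand, 42400 bases apart, and had log2 fold changes of opposite sign between the knockdowns, 2.11 and -2.94. Ccl25, outside these clusters and at 7.11 to 10.2 CPM, had log2 fold changes of 0.18 and 0.07 against si Ctrl. Of its exon bases 2.74% also lie in exons of Elavl1 on the opposite strand, a gene at a mean of 67.8 CPM. The part of Elavl1 reads in the Ccl25 level was not tested.

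**Figure D4:**
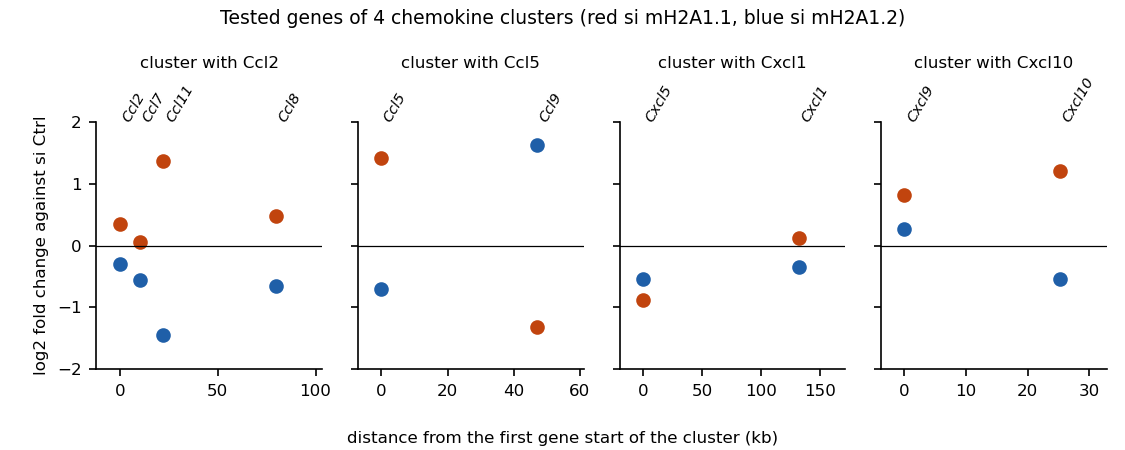
Log2 fold change against si Ctrl of the tested genes of 4 chemokine clusters, placed by distance in kb from the first gene start of the cluster, red for si mH2A1.1 and blue for si mH2A1.2. Ccl5 and Ccl9, 42400 bases apart, have opposite signs in each knockdown. Of the 10 genes shown none passed the main test against si Ctrl. Ccl9 was called with si mH2A1.2 by DESeq2, and in both knockdowns with the replicate block.

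Among the interleukins, Il1b had the largest fold change against si Ctrl. Il1b encodes interleukin-1 beta, a leading inflammatory cytokine, at chr2:129364570-129371139 on the minus strand. It was at 0.348, 0.373 and 0.206 CPM in si Ctrl, at 1.46, 1.26 and 1.13 CPM with si mH2A1.1, and at 1.18, 0.548 and 0.269 CPM with si mH2A1.2. The si mH2A1.1 samples were all above the controls, and si mH2A1.2 was spread over both ranges. In the mH2A1.1 knockdown its log2 fold change was 2.04 (SE 0.47, adjusted p = 0.0251), which missed the threshold of 0.01, and in the mH2A1.2 knockdown the level was 2.14 times that of si Ctrl (adjusted p = 0.310) and 1.32 times without si mH2A1.2 replicate 1. The si mH2A1.1 difference was called by DESeq2 (adjusted p = 0.00205) and with the replicate block (0.00797). Il1a, which lies 54597 bases away, was at 0.0773 to 0.266 CPM and was not tested.

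Il16, made as a precursor that is cut to release a ligand of CD4, was at 0.696, 0.853 and 0.825 CPM in si Ctrl, at 0.296, 0.667 and 0.576 CPM with si mH2A1.1, and at 1.43, 1.25 and 1.26 CPM with si mH2A1.2. The groups did not overlap. The log2 fold change between the knockdowns was -1.35 (SE 0.30, adjusted p = 0.0107). Of its exon bases 15.3% lie in exons of Stard5 on the opposite strand.

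Il33, a nuclear alarmin that acts on Il1rl1, was at 30.1, 31.2 and 28.2 CPM in si Ctrl, at 23.7, 55.9 and 47.9 CPM with si mH2A1.1 and at 34.6, 34.7 and 41.7 CPM with si mH2A1.2. Replicate 1 of si mH2A1.1 was below the controls and its other replicates above them, so si mH2A1.1 and si Ctrl overlapped (log2 fold change 0.51, SE 0.25, adjusted p = 0.196). All si mH2A1.2 samples were above the controls, but the difference did not pass the test (log2 fold change 0.31, SE 0.25, adjusted p = 0.604). Il12a was at 10.2, 10.0 and 10.3 CPM in si Ctrl, at 7.61, 8.32 and 6.17 CPM with si mH2A1.1 and at 4.13, 7.44 and 7.20 CPM with si mH2A1.2. Both knockdowns were below all controls, with log2 fold changes of -0.47 (adjusted p = 0.171) and -0.70 (adjusted p = 0.131). Il18, a cytokine that drives interferon gamma, ranged from 2.89 to 11.4 CPM, and its lowest and highest samples were a control and si mH2A1.2 replicate 1. Its si mH2A1.1 samples, at 5.83 to 9.16 CPM, were above all controls, at 2.89 to 5.78 CPM, and did not pass the test (log2 fold change 0.63, SE 0.40, adjusted p = 0.325). Il15, a cytokine that muscle fibres secrete, ranged from 2.30 to 4.25 CPM with overlapping groups. Il34 was at 9.85, 12.9 and 9.95 CPM in si Ctrl and at 13.5, 15.0 and 13.2 CPM with si mH2A1.2, which did not overlap (log2 fold change 0.35, SE 0.13, adjusted p = 0.217). Il4, which recruits myoblasts to fuse with growing myotubes, was at 1.07 to 1.87 CPM, and its log2 fold changes against si Ctrl were 0.01 and 0.28. Il6, known as a myokine, was at 0.335 to 1.43 CPM.

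Lif lay above the controls in both knockdowns. It was at 9.05, 9.51 and 10.4 CPM in si Ctrl, at 19.0, 14.4 and 20.9 CPM with si mH2A1.1, and at 17.9, 15.9 and 24.3 CPM with si mH2A1.2. All 6 knockdown samples were above all controls, and the knockdowns overlapped each other. Its log2 fold change in the mH2A1.1 knockdown was 0.91 (SE 0.18, adjusted p = 0.0155) and in the mH2A1.2 knockdown 1.01 (SE 0.18, adjusted p = 0.0263), neither below 0.01. Both were called with the replicate block (adjusted p = 0.00339 and 0.00802) and by DESeq2 (0.000181 and 5.51e-05). Since both differences are read against the same 3 controls, they are not independent of each other.

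Csf1 was at 95.7, 139 and 112 CPM in si Ctrl, at 110, 105 and 137 CPM with si mH2A1.1, and at 187, 191 and 155 CPM with si mH2A1.2. The si mH2A1.2 samples were above all others. The log2 fold change was -0.60 between si mH2A1.1 and si mH2A1.2 (SE 0.16, adjusted p = 0.0207) and 0.62 between si mH2A1.2 and si Ctrl (SE 0.16, adjusted p = 0.0712). Both sizes are below the threshold of 0.8. Csf2 and Csf3, the granulocyte-macrophage and granulocyte factors, did not exceed 0.0988 CPM.

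Promoter sequences from RefSeq (GRCm38.p6), 250 bases before to 50 after each gene start, matched 19 of the 28 tested genes by symbol. The windows of 5 genes with differences described above are shown for reference, 5′ to 3′ on the gene's strand, and capitals mark matches to 3 motifs searched on both strands. The motifs are an interferon-response type (GAAANNGAAA), a kappa-B type (GGGNNNNNCC) and an AP-1 type (TGANTCA), and neighbouring matches can overlap. The windows lie at chr5:95956689-95956988 (plus strand, Cxcl13), chr6:117168285-117168584 (plus strand, Cxcl12), chr5:92348840-92349139 (minus strand, Cxcl10), chr11:83578587-83578886 (minus strand, Ccl9) and chr11:4257318-4257617 (plus strand, Lif).
Cxcl13: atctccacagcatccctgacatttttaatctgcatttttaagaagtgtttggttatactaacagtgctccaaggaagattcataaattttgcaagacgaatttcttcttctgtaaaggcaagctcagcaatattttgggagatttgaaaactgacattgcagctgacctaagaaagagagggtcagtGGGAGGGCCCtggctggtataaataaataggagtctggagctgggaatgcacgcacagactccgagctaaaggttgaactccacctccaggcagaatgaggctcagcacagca
Cxcl12: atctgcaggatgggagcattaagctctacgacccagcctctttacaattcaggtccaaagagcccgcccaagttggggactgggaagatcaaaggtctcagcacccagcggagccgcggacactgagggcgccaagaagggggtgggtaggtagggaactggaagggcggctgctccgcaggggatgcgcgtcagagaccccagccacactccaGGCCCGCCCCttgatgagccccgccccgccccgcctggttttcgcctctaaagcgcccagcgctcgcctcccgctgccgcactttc
Cxcl10: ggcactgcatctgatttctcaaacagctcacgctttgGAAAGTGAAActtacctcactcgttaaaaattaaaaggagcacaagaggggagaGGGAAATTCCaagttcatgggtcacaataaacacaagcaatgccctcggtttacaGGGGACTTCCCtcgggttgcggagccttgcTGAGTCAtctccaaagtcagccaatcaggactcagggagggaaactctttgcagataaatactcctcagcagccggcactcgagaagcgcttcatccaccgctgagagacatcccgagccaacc
Ccl9: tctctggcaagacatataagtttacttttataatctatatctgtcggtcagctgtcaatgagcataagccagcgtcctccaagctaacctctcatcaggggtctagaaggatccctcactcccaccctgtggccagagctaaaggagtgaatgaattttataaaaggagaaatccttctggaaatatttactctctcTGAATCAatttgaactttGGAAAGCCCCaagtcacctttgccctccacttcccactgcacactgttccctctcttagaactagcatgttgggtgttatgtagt
Lif: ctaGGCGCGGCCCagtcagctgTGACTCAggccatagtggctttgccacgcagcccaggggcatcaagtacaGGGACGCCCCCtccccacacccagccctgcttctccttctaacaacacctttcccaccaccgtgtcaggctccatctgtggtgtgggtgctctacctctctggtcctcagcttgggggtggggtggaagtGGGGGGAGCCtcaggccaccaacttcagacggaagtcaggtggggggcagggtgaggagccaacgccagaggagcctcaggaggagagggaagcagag

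The kappa-B type is loose and was held by 50.8% of the 32851 mouse promoters in the table, by 13 of the 26 promoters of the tested genes, and by all 5 windows shown. The AP-1 type was held by 7.81% of all promoters and by 7 of the 26, among them those of Lif, Ccl9 and Cxcl10. The interferon-response type was held by 3.44% of all promoters and by 2 of the 26, those of Cxcl10 and Il4. Cxcl10, whose levels were highest in si mH2A1.1, held all 3, with the interferon-response match 213 bases before the start, while Cxcl13 and Cxcl12 held the kappa-B type alone. A match describes the letters and does not show that a factor binds there.

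The receptors were counted over 71 genes, the chemokine, interleukin and colony-stimulating factor receptors with Il6st, Lifr and Osmr, of which 39 were tested. Against si Ctrl none was changed in either knockdown, while 1.80% and 0.179% of all genes were. An adjusted p below 0.05 was reached by 6 with si mH2A1.1 and by 2 with si mH2A1.2, while 11.1% and 2.35% of all genes reached it. Unadjusted p below 0.05 was reached by 10 and 12 of the 39, against 29.6% and 15.9% of all genes. DESeq2 called 1 (Il15ra, higher with si mH2A1.1) and 0, against 5.05% and 1.99%. Between the knockdowns 6 of 39 differed, Il15ra, Il1rap and Il2rb higher in si mH2A1.1 and Il1r1, Il1rl1 and Osmr lower, while 6.38% of all genes were changed. DESeq2 called 10 of the 39 there, 5 higher and 5 lower, adding Ccr7 and Csf2rb2 (higher in si mH2A1.1) and Ackr4 and Il6ra (lower), while it called 9.64% of all genes. The median log2 fold change of the 39 between the knockdowns was -0.32.

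Receptors of the ligands described above were picked after their values were seen. Cxcr5, the receptor of Cxcl13, was at or under 0.0806 CPM in every sample, about the level of 3 reads. Cxcr4 was at 10.3 to 20.9 CPM and Ackr3 at 47.3 to 92.8 CPM, so both Cxcl12 receptors were present in all groups. The si mH2A1.1 samples of Cxcr4, at 11.2 to 12.8 CPM, were below all controls, and neither receptor passed the test in any comparison (lowest adjusted p 0.213 and 0.724). Ccr1, the Ccl9 receptor, was at or under 0.0535 CPM, Ccr3, the Ccl11 receptor, at or under 0.0494 CPM, and Cxcr3, the Cxcl10 receptor, at or under 0.0494 CPM. Csf1r was at 0.107 to 0.417 CPM against Csf1 at 95.7 to 191 CPM.

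Both chains of the interleukin-1 receptor differed between the knockdowns. Il1r1, the signalling receptor of interleukin-1, was at 53.7, 54.3 and 57.3 CPM in si Ctrl, at 36.5, 39.4 and 39.6 CPM with si mH2A1.1 and at 68.5, 69.1 and 75.8 CPM with si mH2A1.2. The 3 groups did not overlap, and the log2 fold change between the knockdowns was -0.88 (adjusted p = 0.000257). Against si Ctrl it was -0.52 with si mH2A1.1 (SE 0.08, adjusted p = 0.00642), below the threshold of 0.8 in size. Il1rap, the accessory chain of this receptor, had the reverse order, at 13.0 to 16.5 CPM with si mH2A1.1 and 7.25 to 8.45 CPM with si mH2A1.2 (log2 fold change 0.89, adjusted p = 0.00192). Il1rl1, the receptor of Il33, was at 0.241, 2.00 and 1.06 CPM in si Ctrl, at 0.198, 0.346 and 0.484 CPM with si mH2A1.1 and at 2.56, 3.44 and 3.06 CPM with si mH2A1.2 (log2 fold change between the knockdowns -3.12, adjusted p = 0.00568). For the Lif receptor, Lifr was at 104 to 195 CPM with no adjusted p below 0.0628, and Il6st was at 299 to 311 CPM in si Ctrl and 178 to 258 CPM with si mH2A1.1 (log2 fold change -0.52, SE 0.13, adjusted p = 0.0303). Osmr, which pairs with gp130 for oncostatin M, was at 14.9 to 23.5 CPM with si mH2A1.1 and 46.4 to 49.4 CPM with si mH2A1.2 (log2 fold change -1.26, adjusted p = 0.00157).

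**Figure D5:**
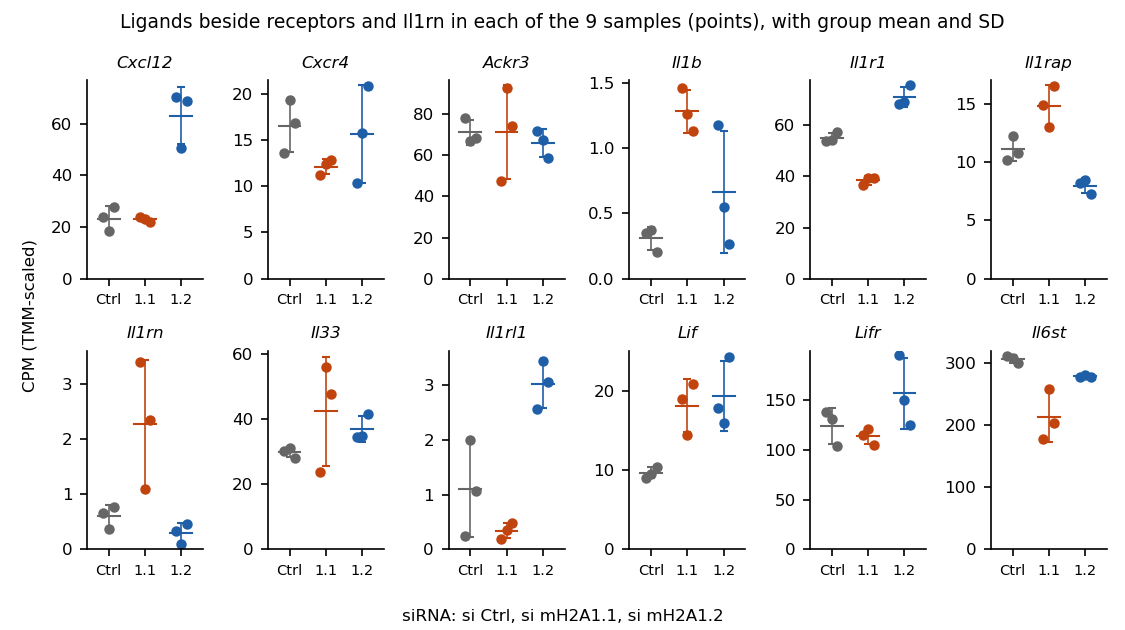
CPM in each sample (points; bars are group mean and SD, n = 3) of 4 ligands beside their receptors and the antagonist Il1rn, each on its own axis from 0. The group means of Il1r1 and Il1rl1 are lowest and those of Il1rap and Il1rn highest in si mH2A1.1, and the groups of Ackr3 overlap.

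Of 20 other cytokines and cytokine inhibitors, 12 were tested, and by edgeR none was changed against si Ctrl, while 1.80% and 0.179% of all genes were. Unadjusted p was below 0.05 for 4 in the mH2A1.1 and 2 in the mH2A1.2 knockdown, against 29.6% and 15.9% of all genes. DESeq2 called 1 (Il1rn) and 0, against 5.05% and 1.99%. Il1rn, the antagonist that blocks the interleukin-1 receptor, was at 0.669, 0.373 and 0.773 CPM in si Ctrl, at 3.41, 1.09 and 2.35 CPM with si mH2A1.1 and at 0.330, 0.104 and 0.457 CPM with si mH2A1.2. It was the 1 gene of the 12 that differed between the knockdowns (log2 fold change 2.93, adjusted p = 0.00480), while 6.38% of all genes did. All si mH2A1.1 samples were above the other 6.

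Of 14 genes of the NF-kB pathway, all tested, none was changed in any of the 3 comparisons by edgeR or DESeq2. Over all genes edgeR called 1.80%, 0.179% and 6.38% and DESeq2 5.05%, 1.99% and 9.64%, and 14 genes are too few to tell none from these shares. Adjusted p was below 0.05 for 1, 0 and 3 of the 14, against 11.1%, 2.35% and 22.5% of all genes. Unadjusted p was below 0.05 for 1, 1 and 5, against 29.6%, 15.9% and 36.2%. The medians of their log2 fold changes were -0.14, 0.06 and -0.21. Of 7 interferon response factors, none was called with si mH2A1.2 by edgeR or DESeq2, against 0.179% and 1.99% of all genes. An unadjusted p below 0.05 was reached by 1 of them, against 15.9% of all genes. With si mH2A1.1 the factors that rose against si Ctrl included Irf7, which amplifies the interferon response (log2 fold change 3.36, SE 0.44, adjusted p = 0.00329), and Irf9 (1.70, SE 0.25, adjusted p = 0.00453). In that comparison 1.80% of all genes were changed. Not all of the 7 rose there, as Irf1, Irf2 and Irf3 had log2 fold changes of -0.10, -0.11 and -0.14 and did not pass the test (lowest adjusted p 0.476). Stat2 was higher in si mH2A1.1 than in si mH2A1.2 (log2 difference 0.81, adjusted p = 0.00642), while 6.38% of all genes were changed between the knockdowns. Irf7 was at 1.93 to 2.11 CPM in si Ctrl, at 16.1, 10.6 and 35.9 CPM with si mH2A1.1 and at 1.50 to 3.17 CPM with si mH2A1.2. Of 19 genes of gp130 signalling, AP-1 and mRNA decay, none was changed against si Ctrl by edgeR or DESeq2. The all-gene shares were 1.80% and 0.179% by edgeR and 5.05% and 1.99% by DESeq2. An unadjusted p below 0.05 was reached by 5 and 4 of the 19, against 29.6% and 15.9% of all genes. Between the knockdowns 2 of the 19 were lower in si mH2A1.1, the AP-1 subunit Junb (log2 fold change -0.89, adjusted p = 0.00409) and Zfp36l1, which binds AU-rich mRNA and speeds its decay (-0.93, adjusted p = 0.00186), while 6.38% of all genes were changed. DESeq2 also called Atf3, a stress-induced partner of AP-1 subunits, as higher in si mH2A1.1 (log2 fold change 1.58 and adjusted p = 0.0133 by edgeR). This made 3 of 19, against 9.64% of all genes by DESeq2.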

How the data were processed

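Poly(A) mRNA of 9 C2C12 samples was sequenced as single reads of 50 bp, and the authors estimated reads per gene with Salmon on GRCm38. The deposited table holds these expected counts as whole numbers without normalization. A second deposited table of normalized values was not used. The annotation release is not given in the sources used here, and names, positions and exon lengths came from GENCODE M21, which holds 52762 of the 52780 genes. Groups and replicate numbers came from the sample labels.

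Counts were tested in R 4.3.3 with edgeR 4.0.16 (quasi-likelihood test, legacy form, TMM, filterByExpr on group, Benjamini-Hochberg adjustment over 19545 genes), with the 9 samples in 1 model without a replicate term. The scripts were tested on simulated data. CPM values are TMM-scaled. DESeq2 1.42.0, the newer quasi-likelihood form, other size factors, filters and thresholds, a replicate block, the contrast's samples alone and leaving out each sample were alternatives. Deviations from the group means of same-numbered si mH2A1.2 and si Ctrl samples correlated at 0.196 to 0.331 in all 3 pairs, against a mean of -0.136 for different numbers, so these numbers were taken as pairing the samples. The labels do not state a pairing. In the deposited table, the numbers in the column names run consecutively across the groups within each replicate number. What these column numbers stand for is not stated.

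The genes of the set, the receptor, pathway and marker lists and the tests were chosen with earlier results of these data known. Named genes were those called or with an adjusted p below 0.05 in any contrast, those of at least 1 CPM in any group, and called genes of the lists. Receptors of described ligands, and Cxcl9, Cxcl16, Il1a, Il6, Csf2 and Csf3, were added after their values were seen. Some genes of the lists are not reported here.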

Additional observations from a re-analysis of the deposited data

How the results depend on the processing

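Of 6 called differences, none changed sign under any alternative. Counts of called genes moved with the test and its settings. With si mH2A1.1 against si Ctrl the count of 1 became 3 with DESeq2, 3 without a filter on low counts, 3 at an adjusted p threshold of 0.05, 4 with the replicate block and 0 from the 6 samples of the contrast alone. With si mH2A1.2 against si Ctrl the count of 1 became 3 with DESeq2, 2 without the filter, 2 at the threshold of 0.05, 3 with the replicate block and 0 from the contrast's samples alone. Between the knockdowns the count of 4 became 7 with DESeq2, 7 without the filter and 7 at the threshold of 0.05. The replicate block gave 5 there. Leaving out 1 sample gave 0 to 2, 0 to 1 and 2 to 7, and fits of fewer samples have fewer degrees of freedom. Same-numbered si mH2A1.1 samples correlated at 0.084 to 0.098 with si Ctrl and at 0.092 to 0.116 with si mH2A1.2. The means for different numbers were -0.045 and -0.051, and every sample correlated best with its own number in the other groups. These correlations are weaker than the 0.196 to 0.331 of si mH2A1.2 with si Ctrl. The numbers in the column names also run consecutively within each replicate number, with si mH2A1.1 included. Whether the replicate numbers also pair the si mH2A1.1 samples was not settled. The other settings kept the 3 counts within 1.5 times. The replicate block also moved the log2 fold change of Cxcl12 with si mH2A1.1 against si Ctrl from -0.02 to 0.00.

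Log2 fold changes of 11 named comparisons changed sign on leaving out a sample, and none of them was called. Their ranges against si Ctrl were -0.10 to 0.29 for Ccl7, -0.02 to 0.70 for Ccl8, -0.11 to 0.17 for Csf1, -0.04 to 0.34 for Cxcl1, -0.17 to 0.11 for Cxcl12 and -0.12 to 0.25 for Il4 with si mH2A1.1. For the other knockdown they were -0.03 to 0.24 for Ccl25 and -0.18 to 0.12 for Cx3cl1. Between the knockdowns they were -0.30 to 0.58 for Il18, -0.05 to 0.49 for Il33 and -0.22 to 0.10 for Lif. The cause was not tested. With 3 samples a group a permutation test of 1 gene cannot go below 0.1, so single genes rest on the fit across all genes. Depth limits the lowest genes, such as Ccl11 with 3 to 5 reads per si mH2A1.2 sample.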
